A study of Mus musculus with 5 samples.

Results

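The long noncoding RNA (lncRNA) genes Gas5, Snhg1, Snhg3, Snhg5, Snhg6, Snhg8, Snhg12, Snhg15, Snhg17 and Snhg20 carry small nucleolar RNA (snoRNA) genes inside them and are described here by their exon counts in Surface-seq libraries. They were taken by name, with gene identifiers matched to GENCODE symbols, and all 10 were found among the 55385 genes counted. Surface-seq sequences RNA held by plasma membrane that was taken from cells and wrapped around a polymer (PLGA) core, giving membrane-coated nanoparticles (MCNPs). All libraries came from EL4, an established mouse T lymphoma cell line, with no treatment or genotype that differed between them. In variation A, with 3 libraries, RNA was extracted from the washed MCNPs with phenol-chloroform and end-repaired before both adaptors were joined to it, so RNA from either face of the membrane could enter. In variation B, with 2 libraries, the 3′ adaptor was joined to RNA on intact MCNPs and the RNA was purified afterwards, a design meant to favour RNA facing outwards. The protocol and the side of the membrane changed together, so their parts in any difference cannot be told apart.

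A snoRNA host gene is transcribed as a long precursor whose exons are spliced together while snoRNAs are trimmed out of its introns. Box C/D snoRNAs guide methylation of ribose in other RNAs and box H/ACA snoRNAs guide the conversion of uridine to pseudouridine, mostly in ribosomal RNA in the nucleolus. The spliced RNA of many hosts, Gas5 among them, begins with a tract of pyrimidines as ribosomal protein mRNAs do, is exported to the cytoplasm and is degraded there by nonsense-mediated decay when translated. Gas5 was named for its accumulation in growth-arrested cells.

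Total counts were 2301017, 4502174 and 1187117 for libraries A1 to A3 and 21862003 and 22980172 for the variation B libraries B1 and B2. Levels are given as CPM, counts per 1000000 of the library total. A gene with 3 counts would have had a CPM of 1.30, 0.666, 2.53, 0.137 and 0.131 in the same order, and values near these levels are not detectable as differences. Reads carried no molecular identifiers, so these floors, and the intervals printed beside shares, reflect counting error only. Nothing in the labels says that replicates came from separate cultures, so the p-values measure only the spread between these libraries. A preparation of membrane from many cells also cannot tell fewer contributing cells from less RNA per cell.

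Library A1 stood apart from A2 and A3. Small nuclear RNA genes took 0.847% of its total but 12.1% of A2 and 13.1% of A3, and protein-coding genes took 39.4%, against 22.6% and 22.0%. In B1 and B2 these shares were 1.18% and 0.632% for small nuclear RNA genes and 63.6% and 64.6% for protein-coding genes. Ribosomal RNA genes took 50.0%, 54.0% and 53.9% of A1 to A3, against 23.0% of B1 and 24.2% of B2. Mitochondrial genes took 1.49% of A1 but 0.122% of A2 and 0.138% of A3, beside 2.05% of B1 and 2.04% of B2. Results that rest on A1 are therefore given with and without it, and the part of these differences in the results was not tested. Markers of T lymphocytes were present throughout: the 11 listed genes summed to 795, 510 and 482 CPM over A1 to A3, and to 2277 and 2173 CPM over B1 and B2, with Thy1 the most counted and 10 of the 11 counted in every library. The B lymphocyte and erythroid lists, 4 genes each, stayed at or below 0.503 CPM in every library, with Ms4a1, Hbb-bs, Hbb-bt and Hba-a2 at 0 throughout and Cd79a and Hba-a1 the most counted. The myeloid list reached 5.79 CPM in B2, led by Lyz2, which had 0 counts in all 3 variation A libraries. Other genes of that list gave 2.665 CPM in A2 and 1.685 CPM in A3, with 0 in A1. The 3 fibroblast genes reached 0.869 CPM in A1, led by Col1a1, with Col1a2 at 0 throughout.

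Whether a host's own reads can be separated from those of its snoRNAs depends on the annotation. By position, 34 snoRNA or small Cajal body RNA (scaRNA) genes lay inside the 10 hosts on the same strand, from 1 each in Snhg6, Snhg8, Snhg15 and Snhg20 to 8 in Snhg1 and 10 in Gas5. Because the annotation also lists isoforms that keep introns, 31 of the 34 lay wholly within exons of their host. The counting left out any read over more than 1 gene, and 33 of the 34 nested genes, each wholly covered by exons of some other gene, had 0 counts in all 5 libraries. A value of 0 for such a gene therefore gives no measure of the snoRNA. The same held across the annotation: of 182 snoRNA or scaRNA genes wholly inside exons of another gene, 0 had a count, while 233 of the 1310 with no shared base did.

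**Figure D1:**
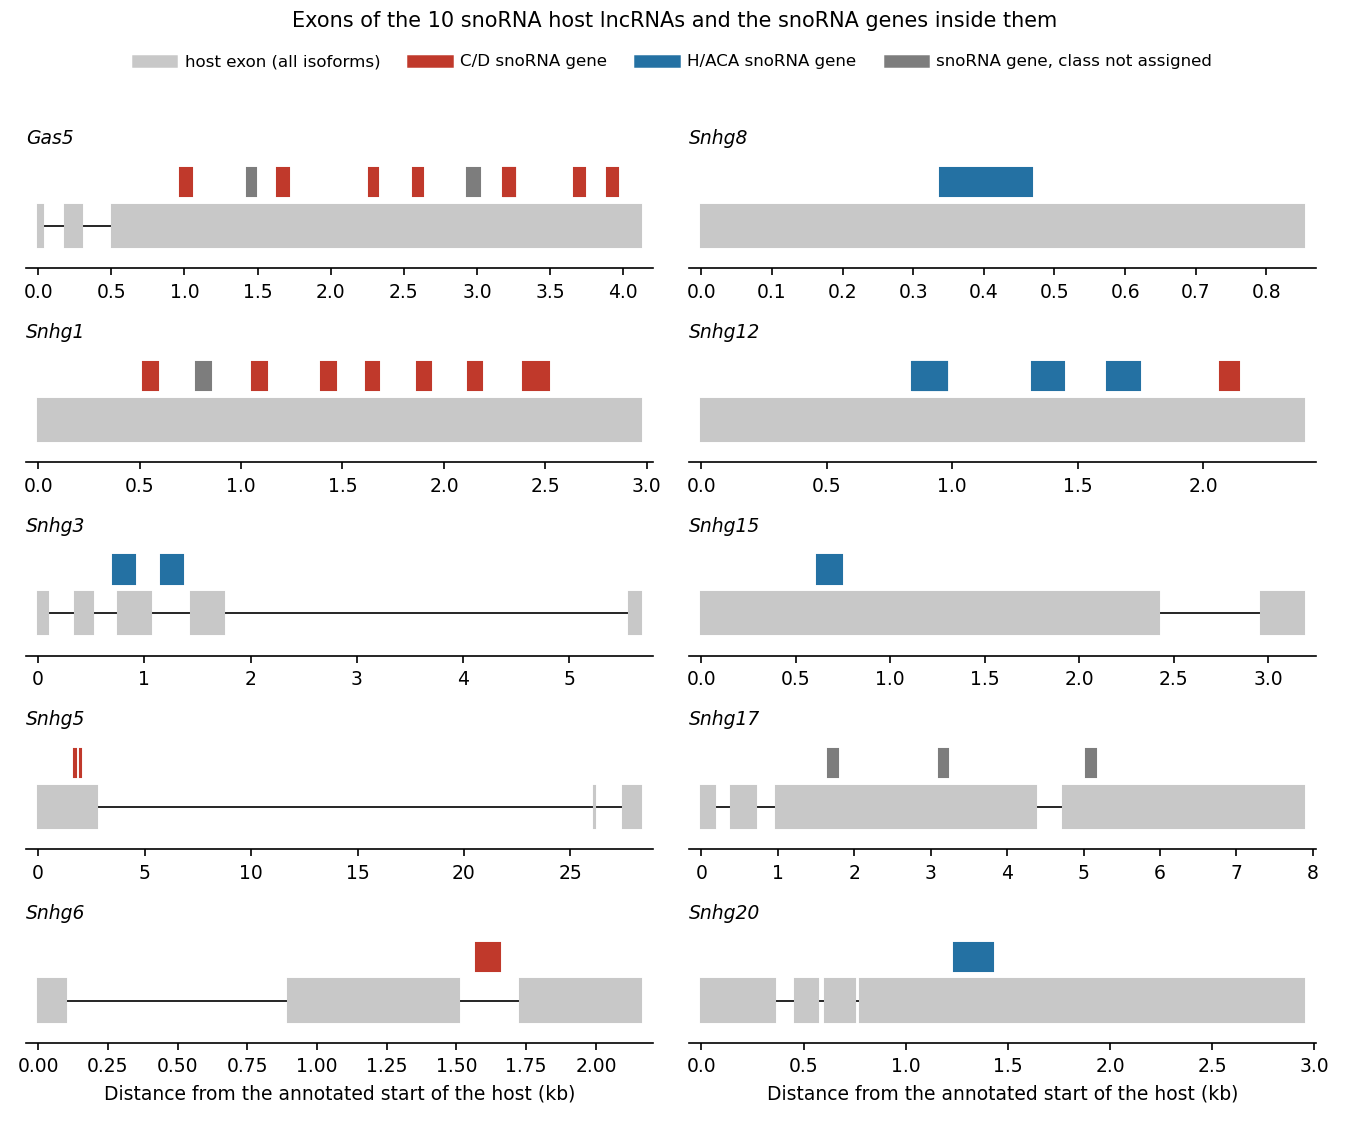
Each panel draws 1 host, with distance from its annotated start in kb on the horizontal axis, grey blocks for exons of all isoforms and coloured blocks for snoRNA genes by class. In Gas5, Snhg1 and Snhg12 the snoRNA genes sit over exons, whereas the snoRNA gene of Snhg6 sits in a gap between exons.

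The exception was Snord87, a box C/D snoRNA gene in Snhg6 that shares no base with any annotated exon. Its counts were 26, 60 and 11 over A1 to A3, beside 1446 for B1 and 2169 for B2. Its sequence and those of nested snoRNAs in Gas5, Snhg5 and Snhg1 are shown because they carry the 2 boxes that name the class, and those of Snhg8 and Snhg15 show the other class. In the GENCODE M21 transcripts (GRCm38), capitals mark TGATGA within the first 25 bases (C box), CTGA within the last 20 (D box), or, in the H/ACA snoRNAs, ACA lying between the base 7 from the end and the base 3 from the end. These are matches of letters, not tested sites.
Snord87 in an intron of Snhg6, chr1:9942463-9942549, minus strand: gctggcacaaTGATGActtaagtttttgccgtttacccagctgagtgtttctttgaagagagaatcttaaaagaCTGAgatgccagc
Snord47 in Gas5, chr1:161038082-161038158, plus strand: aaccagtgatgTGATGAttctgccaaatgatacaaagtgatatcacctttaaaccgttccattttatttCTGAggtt
Snord50a in Snhg5, chr9:88521529-88521600, minus strand: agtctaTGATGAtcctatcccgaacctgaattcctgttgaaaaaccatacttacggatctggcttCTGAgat
Gm23246 in Snhg1, chr19:8725594-8725660, plus strand: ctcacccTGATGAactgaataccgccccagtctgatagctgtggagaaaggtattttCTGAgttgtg
Snora24 in Snhg8, chr3:123507937-123508066, minus strand: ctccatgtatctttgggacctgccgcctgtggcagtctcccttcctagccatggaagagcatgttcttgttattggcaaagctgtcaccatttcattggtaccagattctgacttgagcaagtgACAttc
Snora9 in Snhg15, chr11:6528033-6528165, minus strand: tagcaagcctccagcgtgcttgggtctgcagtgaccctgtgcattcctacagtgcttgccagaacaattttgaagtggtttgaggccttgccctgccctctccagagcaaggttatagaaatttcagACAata
By gene name, or by these letters where the name gives no class and a gene did not match both classes, 19 of the 34 were C/D, 9 were H/ACA and 6 could not be assigned. Gas5, Snhg1, Snhg5 and Snhg6 held C/D genes with no H/ACA gene, Snhg3, Snhg8, Snhg15 and Snhg20 held H/ACA genes, Snhg12 held both and the 3 in Snhg17 were not assigned, since their ACA forms the last bases and falls outside that window. Among genes whose name gives the class, the letters returned the named class for 66 of 98 C/D genes and 40 of 42 H/ACA genes, and the other class for 0 of them.

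The hosts also differ in how much exon belongs to them alone. Exon bases shared with no other gene were 3091 of 3760 in Gas5, 2347 of 2969 in Snhg1 and 1019 of 1146 in Snhg6, but 135 of 986 in Snhg3. Snhg3 shares exon bases with Rcc1 and with a gene on the opposite strand, and Snhg6 shares 127 with Mcmdc2 on the opposite strand. Strand was not used in the counting, so reads of a partner beyond its annotated exons would count for the host, and the counts of Snhg3 and Snhg6 are uncertain to that extent.

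Summed over the 10 hosts, counts were 318, 282 and 59 for A1 to A3, beside 7683 and 7439 for the B libraries. As a share of each library this was 138 CPM for A1 (Wilson 95% interval 124 to 154), 62.6 for A2 (55.7 to 70.4) and 49.7 for A3 (38.5 to 64.1). It was 351 for B1 (344 to 359) and 324 for B2 (316 to 331). Both variation B libraries were above all 3 of variation A. The means were 83.5 ± 47.8 CPM (SD, n = 3) and 338 ± 19.6 CPM (SD, n = 2), with p = 0.1 by a two-sided exact permutation test, the smallest value 3 against 2 libraries can give. Without A1 the variation A mean was 56.2 ± 9.15 CPM (SD, n = 2). Against totals without ribosomal RNA genes and mitochondrial genes the sums were 285, 137 and 108 per 1000000 counts for A1 to A3, beside 469 for B1 and 439 for B2. On those totals the means were 176 ± 94.9 (SD, n = 3) and 454 ± 21.1 (SD, n = 2), nearer to each other as a ratio, and the groups still did not overlap. As a share of library totals, lncRNA genes summed as a class went the other way from the 10 hosts. They took 4.67%, 6.01% and 5.10% of A1 to A3, beside 1.87% of B1 and 1.87% of B2. Most genes moved the same way as the hosts, since on library totals the 10287 genes tested had a median log2 fold change of 1.50. Changes are therefore given after scaling with trimmed mean of M-values (TMM) factors, on which that median was 0.05, and where library totals turn a direction this is stated. On the TMM scale the 258 lncRNA genes tested had a median of 0.09. The lower class share is a sum that its most counted genes can set, and does not hold for the typical lncRNA gene tested.

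Snhg6 (ENSMUSG00000098234.7, chr1:9941959-9944118, minus strand of GRCm38), the host of Snord87, had the highest log2 fold change of the 9 hosts that were tested. Its scaled CPM was 10.9 for A1, 4.28 for A2 and 1.48 for A3, beside 29.1 for B1 and 25.9 for B2. These rest on 22, 11 and 1 counts in variation A, against 1194 and 1095. Both variation B values lay above the 3 of variation A. Within variation A, A1 was above A2, and A3, with 1 count, is not ranked.

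Snhg1 (ENSMUSG00000108414.1, chr19:8723475-8726443, plus strand), a C/D host next to the Slc3a2 gene, had the tightest variation A values of the family. Scaled CPM was 27.3, 24.9 and 26.7 over A1 to A3, beside 49.0 for B1 and 45.2 for B2. The groups did not overlap, and here A1 lay with A2 and A3.

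Gas5 (ENSMUSG00000053332.13, chr1:161034422-161038539, plus strand) had the highest mean CPM over the 5 libraries, although Snhg1 was counted more in A2 and A3. Its scaled CPM was 60.0 for A1, 18.3 for A2 and 10.4 for A3, beside 60.0 for B1 and 57.0 for B2. A1 equalled the variation B libraries, so the groups overlapped through that library alone. Snhg5 (ENSMUSG00000097195.10, chr9:88495268-88523562, minus strand), the host of Snord50a and Snord50b, was also higher in A1 than in A2. Its scaled CPM was 18.9 for A1, 7.0 for A2 and 2.96 for A3, beside 17.0 for B1 and 20.8 for B2. Its variation A values rest on 38, 18 and 2 counts. Over the mean of A2 and A3, A1 was 4.19 times as high for Gas5 and 1.06 times for Snhg1, and the median over all genes tested was 1.01. For Snhg5 and Snhg6 the A3 counts, 2 and 1, are below the floor of 3, and A1 is not set against them.

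Snhg15 (ENSMUSG00000085156.8, chr11:6525591-6528779, minus strand) and Snhg20 (ENSMUSG00000086859.4, chr11:117076008-117078955, plus strand), which hold H/ACA genes, had the opposite order. Snhg15 was at a scaled CPM of 5.95 for A1, 15.2 for A2 and 13.3 for A3, beside 5.05 for B1 and 3.88 for B2. Snhg20 was at 2.48, 7.39 and 8.89 over A1 to A3, beside 1.63 for B1 and 1.82 for B2. Variation B was below all of variation A for both, with A1 nearest to it. The Snhg20 values rest on 5, 19 and 6 counts in variation A.

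Snhg8 (ENSMUSG00000104960.1, chr3:123507552-123508404, minus strand), the host of Snora24, had a scaled CPM of 15.4, 13.6 and 11.9 over A1 to A3, beside 9.93 for B1 and 7.74 for B2. The groups again did not overlap. Snhg12, on chromosome 4, had 8.43, 5.83 and 4.44 beside 7.13 and 4.66, and Snhg17, on chromosome 2, had 8.43, 13.2 and 7.41 beside 8.37 and 9.09. In these last cases the groups overlapped.

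Snhg3 had 12 counts in B1 and 0 in each other library. Its 0.549 CPM in B1 is below the floor of every variation A library, so a difference between the variations was not detectable. Since 851 of its 986 exon bases belong to other genes too, where no read was counted, these counts cover the other 135 bases and give no limit for the whole RNA. It was removed by the filter on low counts and has no fold change.

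**Figure D2:**
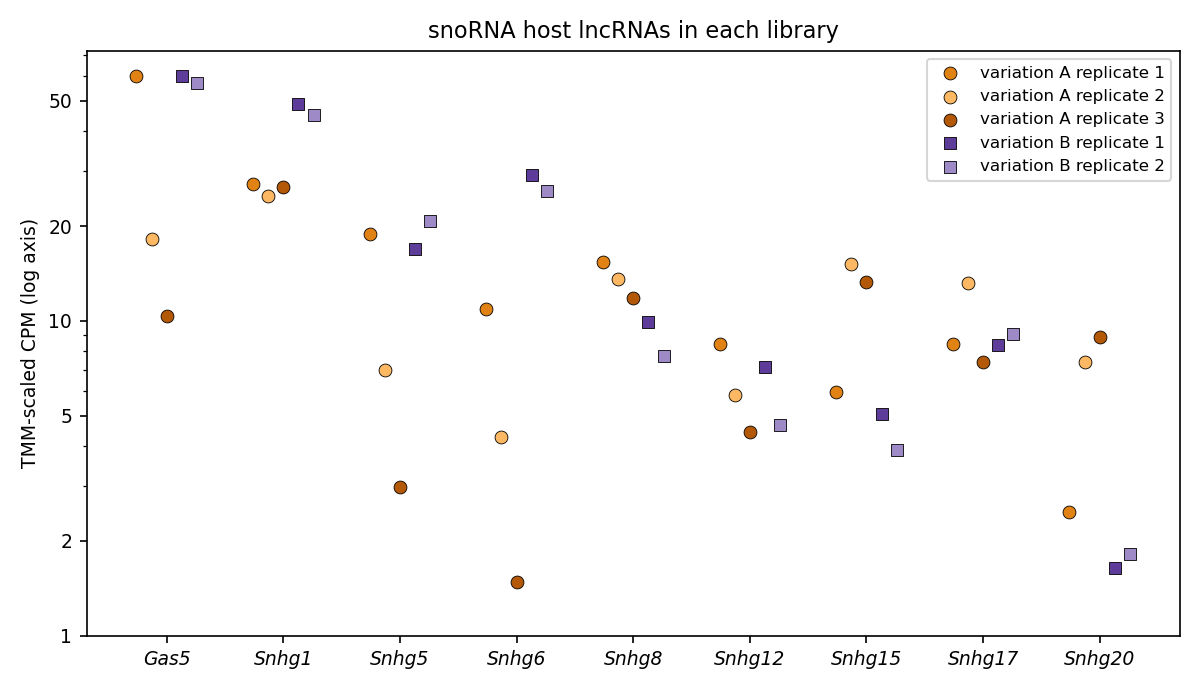
Points give TMM-scaled CPM on a log axis for 9 hosts, circles for the 3 variation A libraries and squares for the 2 variation B libraries; Snhg3, at 0 in 4 libraries, is not drawn. For Gas5 the A1 circle lies well above the A2 and A3 circles, for Snhg15 and Snhg20 below them, and for Snhg1 beside them; the A3 circles of Snhg5 and Snhg6 stand on 2 counts and 1 count.

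Per kb of exon shared with no other gene, the order of the hosts differed between the variations. These lengths join the exons of all annotated isoforms, those that keep introns included. The order between hosts therefore depends on which of them have such isoforms annotated. In variation A, Snhg8 was highest at 18.8 ± 2.44 scaled CPM per kb (SD, n = 3), followed by Snhg1 at 11.2 ± 0.527 and Gas5 at 9.56 ± 8.63, which do not differ beyond the spread of Gas5. That place of Gas5 rests on A1: without it Gas5 was at 4.63 ± 1.81 (SD, n = 2), beside 5.66 ± 0.516 for Snhg15, 11.0 ± 0.532 for Snhg1 and 17.6 ± 1.73 for Snhg8. In variation B, Snhg6 was highest at 27.0 ± 2.23 (SD, n = 2), followed by Snhg1 at 20.1 ± 1.15 and Gas5 at 18.9 ± 0.695, and Snhg8 stood at 12.2 ± 2.14. The lowest of the 9 in variation B was Snhg20 at 0.670 ± 0.0514, and in variation A Snhg17 at 1.45 ± 0.465, within the spread of Snhg20 at 2.42 ± 1.30. Without A1 the lowest in variation A was Snhg5 at 1.43 ± 0.818 (SD, n = 2), of which A3 gave 2 counts, and Snhg17 stood within its spread at 1.55 ± 0.616.

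Of the 9 hosts tested, 1 was called higher in variation B and 0 lower by the quasi-likelihood test of edgeR with Benjamini-Hochberg adjustment over 10287 genes, where a call needs an adjusted p under 0.05 and a fold above 2. Over all genes tested 11.0% were called higher and 12.4% lower, so a count of 1 of 9 is near the background. At an unadjusted p under 0.05, 2 hosts were higher and 2 lower, beside 19.7% and 20.3% of all genes. DESeq2 also called 1 higher and 0 lower, beside 7.75% and 11.8% of the 14524 genes it gave an adjusted p. The median log2 fold change of the 9 was -0.14, against 0.05 for all genes, and without A1 it turned to 0.24, against 0.16. On scaled CPM, variation B lay wholly above variation A for 2 hosts, Snhg1 and Snhg6, against 31.2% of genes tested, and wholly below it for 3, Snhg8, Snhg15 and Snhg20, against 26.7%. On CPM by library totals it lay wholly above for 7, Snhg8 now among them with Gas5, Snhg1, Snhg5, Snhg6, Snhg12 and Snhg17, against 75.0% of genes, and wholly below for 0, against 5.06%.

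Snhg6 was the host called. It was higher in variation B by a log2 fold change of 2.14 ± 0.51 (SE), with adjusted p = 0.0211 in the quasi-likelihood test of edgeR with Benjamini-Hochberg adjustment, and both B libraries were above all 3 A libraries. The adjusted p ranged from 6.66e-05 to 0.123 over 13 alternatives, of which 8 kept the call. It was lost at equal depth, at 0.0583, without A2, at 0.0726, without A3, at 0.0561, without B1, at 0.121, and without B2, at 0.123, with log2 fold changes of 1.89 to 2.24 in these 5, and it was kept at 3.52 on library totals. Leaving out B1 or B2 leaves variation B with 1 library, which is then assumed to vary as those of variation A do, and over all genes such fits called 200 and 161 higher in place of 1135, so a call lost in them says little of the gene.

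Snord87, in the intron of Snhg6, was also called higher, by 1.29 ± 0.36 with adjusted p = 0.0340 in the same edgeR quasi-likelihood test with Benjamini-Hochberg adjustment, but not without A3, at 0.0980, in the fits with 1 variation B library, at 0.113 without B1 and 0.285 without B2, or in the fit with a replicate block, at 0.0805. The log2 fold changes in these 4 were 1.31, 1.53, 0.99 and 1.29. Its adjusted p ranged from 0.00471 to 0.285 over 13 alternatives, 12 with edgeR and 1 with DESeq2 and all with Benjamini-Hochberg adjustment, with 9 calls. SnoRNA genes as a class took 0.313%, 0.183% and 0.139% of the counts of A1 to A3, beside 5.03% of B1 and 4.75% of B2. Of 107 snoRNA genes tested, a list added after the data were seen, 60 were called higher and 4 lower, beside 11.0% and 12.4% of all genes, with a median log2 fold change of 2.06. The value of Snord87 was below that median.

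Per read of Snhg6, Snord87 had 1.18 reads for A1 (Wilson 95% limits 0.675 to 2.07), 5.45 for A2 (2.90 to 10.3) and 11.0 for A3 (1.83 to 66.3), the last over 1 read of Snhg6. It had 1.21 for B1 (1.12 to 1.31) and 1.98 for B2 (1.84 to 2.13). A1 lay with the variation B libraries on this ratio, which needs no scaling between libraries. Because A3 had 1 read of Snhg6, below the floor of 3, no difference between the variations is read from this ratio. Set against the exon counts of all 10 hosts, the same snoRNA reads gave a mean log2 ratio of -2.76 ± 0.75 (SD, n = 3) for variation A and -2.09 ± 0.45 (SD, n = 2) for B, with p = 0.5 by a two-sided exact permutation test. That ratio did not differ beyond the spread, and without A1 its variation A mean was -2.33 ± 0.13 (SD, n = 2). Its snoRNA reads are those of Snord87 alone, since the other nested genes could have no counts. It therefore cannot show whether nested snoRNA per host RNA differed.

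Without A1 the family divided further. By the quasi-likelihood test of edgeR with Benjamini-Hochberg adjustment over 12127 genes, 4 hosts were then called higher, against 20.8% of genes, and 2 lower, against 15.0%. The log2 fold changes were 3.04 for Snhg6, 1.98 for Gas5, 1.79 for Snhg5 and 1.00 for Snhg1, which only just passed the fold threshold, and -1.58 for Snhg15 and -2.08 for Snhg20. With A1 the same edgeR test gave 0.92 ± 0.57 for Gas5, 0.85 ± 0.53 for Snhg5, 0.84 ± 0.27 for Snhg1, -1.34 ± 0.49 for Snhg15 and -1.77 ± 0.65 for Snhg20, with Benjamini-Hochberg adjusted p between 0.0556 and 0.261. The other 3, Snhg8 at -0.65 ± 0.35, Snhg12 at -0.14 ± 0.47 and Snhg17 at -0.21 ± 0.40, passed with A1 or without it in neither direction. A1 was left out because its make-up differs from that of A2 and A3, a choice listed with those of every other library, and the calls made without it rest on 2 libraries a group.

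**Figure D3:**
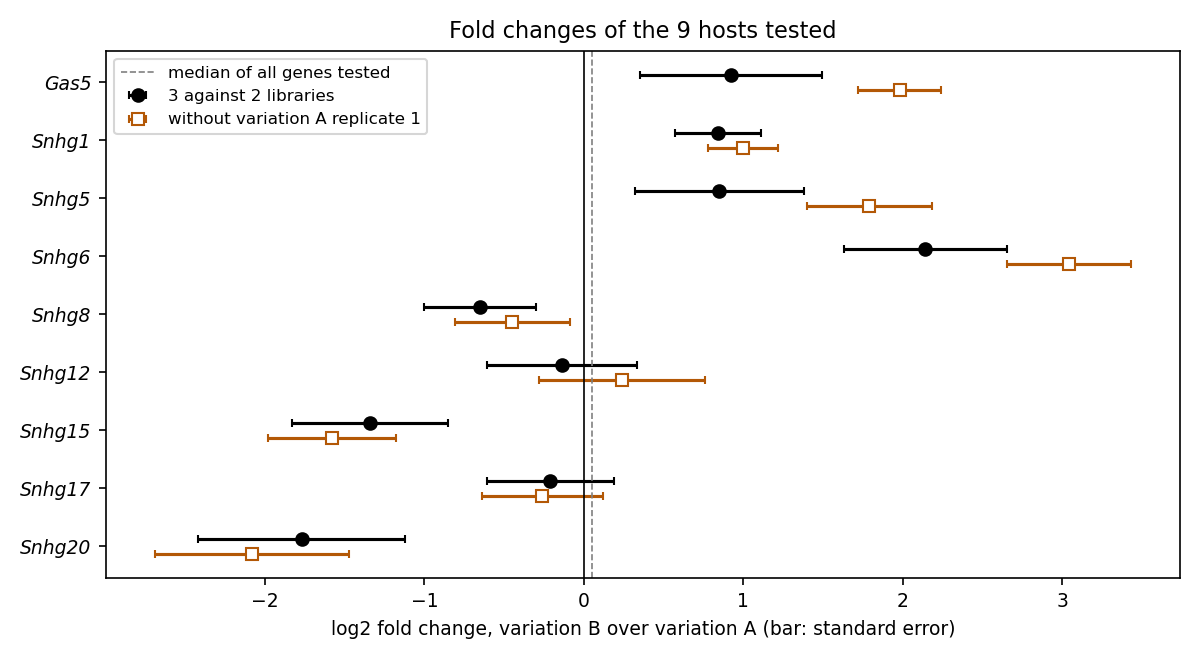
Horizontal positions are log2 fold changes of variation B over variation A with standard errors, as filled circles for all libraries and open squares without A1; the dashed line is the median of all genes tested, 0.05. Snhg6 lies farthest right in both, and leaving out A1 moves Gas5 from 0.92 to 1.98. Fold changes on library totals, which are above 0 for Snhg8, Snhg12, Snhg15 and Snhg17, are not drawn.

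Once these fold changes had been seen, the hosts were set against the class of snoRNA they hold. The 4 C/D hosts, Gas5, Snhg1, Snhg5 and Snhg6, had log2 fold changes from 0.84 to 2.14, and the other 5 tested had values from -1.77 to -0.14. The directions depend on the scaling: on library totals Snhg8 was at 0.80, Snhg12 at 1.29, Snhg15 at 0.21 and Snhg17 at 1.29, all above 0 but below that scale's median of 1.50, while Snhg20 was at -0.22 and the C/D hosts were at 2.20 to 3.52. A share within the family needs no scaling. The 4 C/D hosts gave 74.2% of the family's counts for A1 (Wilson 95% interval 69.1 to 78.7), 49.6% for A2 (43.9 to 55.4) and 47.5% for A3 (35.3 to 60.0). They gave 82.7% for B1 (81.9 to 83.5) and 84.6% for B2 (83.7 to 85.4). A1 lay between the others of its group and variation B. Since the grouping was made from these fold changes, it was not tested; it was 1 of 3 features looked at, with the sequence at the start of each host and the standing of A1.

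**Figure D4:**
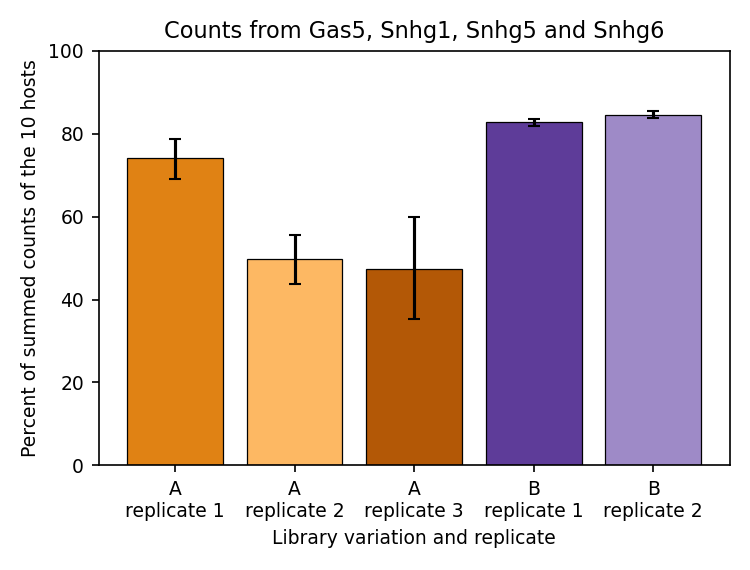
Bars give the percent of the summed counts of the 10 hosts that came from Gas5, Snhg1, Snhg5 and Snhg6 in each library, with Wilson 95% intervals. The bars stand at 74.2% for A1, 49.6% for A2 and 47.5% for A3, and at 82.7% for B1 and 84.6% for B2; these 4 genes were grouped after their fold changes were seen.

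Other hosts were set against class in the same way, with no test of the difference. Among other lncRNA hosts, found by position, 7 with C/D genes alone had a median log2 fold change of -0.45 and 5 with H/ACA genes alone a median of 0.06. Among protein-coding hosts the medians were -0.16 for 41 with C/D genes and 0.10 for 99 with H/ACA genes. Without A1 more hosts passed the filter on low counts. The C/D medians were then 0.14 over 8 lncRNA hosts and 0.16 over 42 protein-coding ones. The H/ACA medians were 0.49 over 5 and 0.27 over 106. Over the same 7 C/D lncRNA hosts as before, the median without A1 was -0.55, the value of Snhg14, so it did not turn. For the protein-coding lists the part of the added genes was not tested. The H/ACA lncRNA hosts include Cct6a, a gene for a subunit of the cytosolic chaperonin that GENCODE types as a processed transcript and RefSeq as protein-coding, and without it their medians were 0.16, and 0.10 without A1. Dancr, an H/ACA host, was called higher at 2.18 and 2410006H16Rik, a C/D host, at 2.28, whereas the C/D host Rab26os was at -1.49 and not called. The C/D host Zfas1 was at 0.97 and the H/ACA host Epb41l4aos at -0.72, the same sides as in the family, and neither was called. Without A1 Zfas1 was called at 1.36, with adjusted p = 0.00133 in the quasi-likelihood test of edgeR with Benjamini-Hochberg adjustment. That p ranged from 0.00133 to 0.328 over 13 alternatives, of which 2 gave a call. On library totals Zfas1 was called at 2.39, Epb41l4aos turned to 0.81 and Rab26os was at 0.02, and the Dancr call ended in the fits with 1 variation B library, at 1.90 without B1 and 2.41 without B2. These 5 were picked after their values were seen.

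Taken whole, the other hosts are given beside all genes, of which 11.0% were called higher and 12.4% lower. Of 60 other lncRNA hosts 14 were tested, with 2 called higher, 1 lower and a median log2 fold change of -0.23, or -0.45 without Cct6a, the 1 gene of the 60 that RefSeq lists as protein-coding. Of 281 protein-coding hosts 201 were tested, with 21 called higher (10.4%), 23 lower (11.4%) and a median of 0.05, as over all genes. Without A1, 3 of 15 lncRNA hosts were called higher and 1 lower, with a median of -0.28. Of 209 protein-coding hosts 60 were then called higher (28.7%) and 32 lower (15.3%), with a median of 0.37, beside 20.8% and 15.0% of all genes and their median of 0.16. Highest in mean CPM over the 5 libraries among the former were 1110038B12Rik at 0.72 ± 0.27, Cct6a at 0.06 ± 0.39 and AI506816 at -0.73 ± 0.35. Highest by the same mean among the latter were Eef2, the elongation factor that moves the ribosome along mRNA, at 0.07 ± 0.46, Trrap, a scaffold of histone acetyltransferase complexes, at 1.14 ± 0.31, and Prrc2a at -0.67 ± 0.42. Of these 6, Trrap passed, with adjusted p = 0.0314 in the quasi-likelihood test of edgeR with Benjamini-Hochberg adjustment, a call that 7 of 13 alternatives kept. It ended without A2 or A3, in the fits with 1 variation B library, at equal depth and in the fit with a replicate block, with log2 fold changes of 1.03 to 1.24 there.

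**Figure D5:**
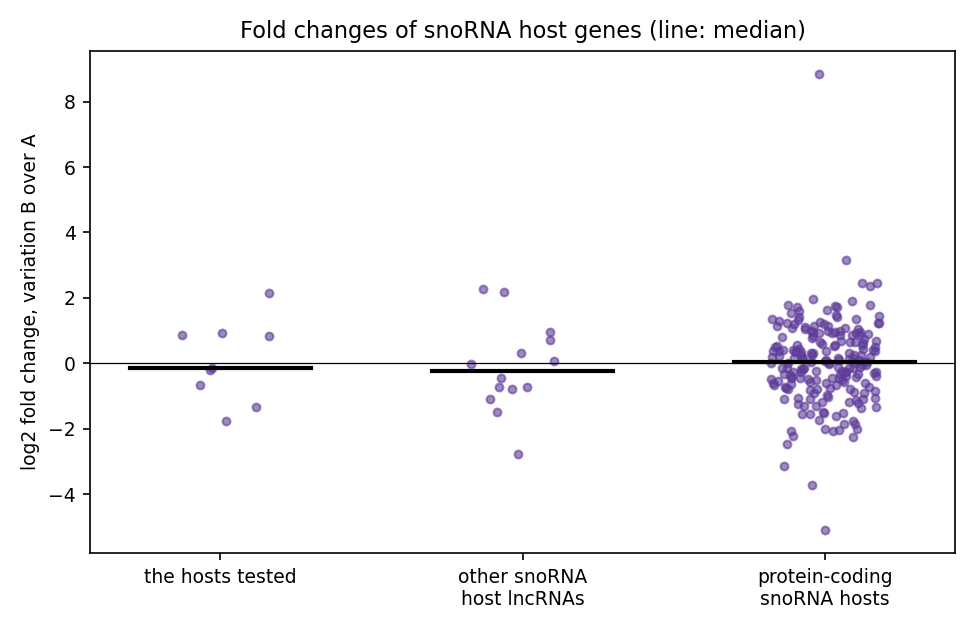
Each point is the log2 fold change of a tested gene, variation B over variation A with TMM scaling, for the 9 hosts tested, 14 other lncRNA hosts and 201 protein-coding hosts; lines are medians, at -0.14, -0.23 and 0.05. The 9 hosts lie within the range of the other lists.

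LncRNAs known from the nucleus that are not of this family were taken as a comparison. The paper reports foci of Malat1 and Neat1 probes on nearly all EL4 cells, whose membranes had not been permeabilised. Neither gene therefore stands for RNA kept wholly in the nucleus. Malat1, a nuclear speckle RNA, had a scaled CPM of 365, 244 and 204 over A1 to A3, beside 1359 for B1 and 1398 for B2. Neat1, the scaffold of paraspeckles, had 366, 574 and 483, beside 365 and 340. The log2 fold changes were 2.34 ± 0.38 and -0.43 ± 0.34, with adjusted p = 0.00619 and 0.367 in the quasi-likelihood test of edgeR with Benjamini-Hochberg adjustment. Of 10 such genes counted as lncRNA, 6 were tested, with 1 called higher and 0 lower, and a median of 0.28; DESeq2 also called 1 higher and 0 lower, and at an unadjusted p under 0.05 the counts were 1 and 0. Over all genes tested the shares were 11.0% and 12.4% by edgeR, 7.75% and 11.8% by DESeq2, and 19.7% and 20.3% at an unadjusted p. The Malat1 call was kept in 11 of 13 alternatives and ended in the fits with 1 variation B library, where the log2 fold change was 2.36 without B1 and 2.32 without B2. On library totals Neat1 turned to 1.09 and was called higher, below that scale's median of 1.50.

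The genes with the profile most like that of Gas5 over the 5 libraries were chosen among 9771 tested protein-coding and lncRNA genes by the smallest root mean square difference in centred log2 scaled CPM, which fixes a high value in A1. They were Snrpb2, Hmgn2, Smurf2, Ireb2 and Ppp6c. The first 3 had 2, 1 and 2 counts in A3, below the floor of 3, so their closeness there is not measured. The difference was 0.11 for Ireb2, with 9 counts in A3, and 0.12 for Ppp6c, with 3. Ireb2, an iron regulatory protein, had a scaled CPM of 82.8, 20.6 and 13.3 over A1 to A3, beside 83.1 for B1 and 78.5 for B2. Likeness over 5 libraries says nothing of shared control.

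The start of each host was read for a run of pyrimidines, the feature by which many hosts are known. In the RefSeq promoter table (GRCm38.p6), 9 of the 10 hosts had 11 start sites, and Snhg6 had no entry. A first base of C with the next 4 bases C or T, read on the gene's strand, was found at 2 of the 11, in Gas5 and Snhg8, against 2.51% of all 32851 start sites in the table and 3.64% of 247 of protein-coding snoRNA hosts. Windows from 20 bases before the first base to 30 bases from it on are shown for these and, for contrast, for Snhg1 and Snhg12, with capitals for the run of C and T that starts at the first base. Snhg12 and a Snhg17 start, which is not shown, have runs of 6 that begin with T, so the rule on the first base left them out.
Gas5, chr1:161035146-161035195, plus strand: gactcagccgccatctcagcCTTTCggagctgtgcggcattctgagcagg
Snhg8, chr3:123508307-123508356, minus strand: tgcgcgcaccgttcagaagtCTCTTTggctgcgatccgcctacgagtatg
Snhg1, chr19:8723467-8723516, plus strand: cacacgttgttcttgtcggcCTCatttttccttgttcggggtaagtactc
Snhg12, chr4:132308658-132308707, plus strand: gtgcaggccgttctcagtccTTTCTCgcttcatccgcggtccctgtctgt
Gas5 and Snhg8 lay on opposite sides of 0 in log2 fold change, at 0.92 and -0.65, a pair that library totals put at 2.22 and 0.80. An annotated start need not be the base where transcription begins in EL4 cells, and an absent run says only that these letters are not there.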

How the data were processed

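Surface-seq was measured in 5 libraries, grouped by the letter and number in their labels. The deposited values are raw counts per gene: the authors used Trimmomatic 0.36 for trimming, STAR 2.7.3a for alignment to GRCm38 and featureCounts 1.6.4 for counting over the exons of GENCODE M24 (versions per the labels), without strand, leaving out reads with several alignments or over more than 1 gene. GENCODE M21 gave symbols and types for 55144 of 55385 genes, while exon positions, overlaps and lengths were read from the deposited count tables.

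The variations were compared in R 4.3.3 by the quasi-likelihood test of edgeR 4.0.16 after filterByExpr and TMM scaling, and p-values of all genes tested were adjusted together by Benjamini-Hochberg. Standard errors were taken as the size of the log2 fold change over the square root of F. DESeq2 1.42.0 was an alternative. Single values were compared by exact permutation. The edgeR and DESeq2 steps were tested on simulated counts. The simulation gave all libraries the same make-up apart from a set of well-counted changed genes. It therefore checks that the steps run as meant, not the calls made here. Every pair of libraries differed by more than counting noise.

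Named genes were the 10 hosts, the nested snoRNA of each with the highest mean CPM, the 3 other lncRNA hosts and 3 protein-coding hosts with the highest mean CPM, Malat1, Neat1 and the 5 genes most like Gas5. Rcc1, Mcmdc2, Dancr, 2410006H16Rik, Rab26os, Zfas1, Epb41l4aos and the snoRNAs whose sequences are shown were added later. A host had to be over 20 bases longer than the snoRNA gene inside it. The members and lists were chosen with earlier results of these data known. The ACA letters and the grouping by class were added after seeing the data, as were the ratio of Snord87 to Snhg6 and the list of all snoRNA genes. Coverage along genes was not analysed here.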

Additional observations from a re-analysis of the deposited data

How the results depend on the processing

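Snhg6 was higher in variation B under all 13 alternatives to its test, with its call lost in the 5 named above, 2 of them with 1 variation B library. Leaving out 1 library gave 161 to 2526 genes called higher and 137 to 1821 lower, 0 to 4 hosts higher, 0 to 2 lower, and 0 to 1 nested snoRNA genes higher. On library totals, 5668 of 10287 genes tested were called higher and 301 lower, or 95% of calls higher against 47.1% with TMM. Beside that background, 4 of the 9 hosts tested were called higher: Snhg1, Snhg5, Snhg6 and Snhg17, the last from below 0 with TMM. At equal depth 0 hosts were called higher, beside 795 of 7940 genes tested. Replicate numbers did not pair the libraries: deviations of A1 and B1 correlated at -0.104 and those of A2 and B2 at -0.034 over 10287 genes. With the replicate block, 761 genes were called higher and 813 lower, Snhg6 kept its call and 0 nested snoRNA genes were called higher.

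The sign turned on library totals for Snhg8 (0.80), Snhg12 (1.29), Snhg15 (0.21) and Snhg17 (1.29), for Snhg12 also with no filter (0.06). Leaving out 1 library moved Snhg12 between -0.48 and 0.24, above 0 without A1 or B2, and Snhg17 between -0.27 and 0.18, above 0 without A2. Neither was called with TMM. Among the genes compared with the family, library totals also turned Neat1 (1.09, then called higher), AI506816 (0.81), Prrc2a (0.89), Epb41l4aos (0.81) and Rab26os (0.02). Near 0, Cct6a turned at equal depth (-0.15) and with upper-quartile factors (-0.07), and Eef2 likewise (-0.08 and -0.07). Leaving out 1 library moved Cct6a between -0.11 and 0.66 and Eef2 between -0.04 and 0.47. Snhg15, Snhg20 and Rab26os were not tested at equal depth, having too few counts. The summed share differed by 254 CPM, by 168 without Gas5, the member with the highest mean CPM. The difference in log2 ratio of nested snoRNA counts, all of them from Snord87, to host counts was 0.66 with the exons of all hosts. It was -1.42 for Snord87 to Snhg6 alone, an alternative chosen after seeing the data in which A3 rests on 1 Snhg6 count. Leaving out 1 library moved the former between 0.23 (without A1) and 0.98 (without B1). Leaving out the host with most nested counts gave no value, since Snord87 is the only nested gene with counts. The causes were not tested. Variation A has 59 to 318 counts on the family, which limits every fold change given.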
